A study of Mus musculus with 16 samples.

Results

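The transcription factors and effectors of the ATF4 response were followed in liver and white adipose tissue of DIO (diet-induced obese) mice. The members were the rows of the deposited tables whose gene symbol is Atf4, Atf5, Atf3, Ddit3, Cebpb, Cebpg, Trib3, Chac1, Nupr1 or Stc2. These 10 symbols matched 11 of 22322 rows, because Ddit3 has a second row (ENSMUSG00000116429) that held 0 to 2 counts in every library and was left out of the tests. Mice had been injected intraperitoneally with halofuginone at 100 μg/kg (libraries labelled H100) or with vehicle (labelled HFD) every 2 days for 8 weeks. Both arms are described as DIO mice, and the labels used here give neither strain, sex, age, fat depot nor whether each library came from a separate animal, so p-values measure the spread between libraries. Poly(A)-selected RNA was sequenced from 5 vehicle and 5 halofuginone livers and from 3 and 3 samples of fat.

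ATF4 is a basic leucine zipper transcription factor whose translation rises when the initiation factor eIF2 is phosphorylated, for example by the kinase GCN2 when uncharged tRNA accumulates. Halofuginone inhibits prolyl-tRNA synthetase and is widely used to raise ATF4 in this way. ATF4 pairs with C/EBP proteins on composite DNA elements and switches on further transcription factors (ATF3, ATF5, DDIT3, also called CHOP) and effectors, among which TRIB3 is a pseudokinase that restrains the response. Because ATF4 is controlled largely at translation, its mRNA level is not a measure of its protein.

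The composite element is called CARE (C/EBP-ATF response element), and promoter sequence is shown for the members that hold it close to their start site. RefSeq promoters (GRCm38.p6, 250 bases before to 50 bases after the start of the gene) were found for all 10 symbols, in 11 windows. They were searched on both strands for the letters TGATGNAA, which 3.97% of 32851 promoter windows of the same length hold. A match was present in 4 members (Atf3, Trib3, Chac1, Nupr1) and absent from the windows of the other 6. In 3 of the 4 the match read TTGCATCA, a form that 0.895% of all windows hold on either strand. Stretches of 60 bases are printed 5′ to 3′ on the strand of the gene, with the match in capitals.
Atf3 (chr1:191183410-191183469, minus strand): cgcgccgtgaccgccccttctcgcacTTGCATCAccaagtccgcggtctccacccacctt
Nupr1 (chr7:126625547-126625606, minus strand): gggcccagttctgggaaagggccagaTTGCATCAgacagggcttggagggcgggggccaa
Chac1 (chr2:119351023-119351082, plus strand): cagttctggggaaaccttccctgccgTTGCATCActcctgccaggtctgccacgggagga
Trib3 (chr2:152344013-152344072, minus strand): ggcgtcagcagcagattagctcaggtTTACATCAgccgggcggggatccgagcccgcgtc
Counted from the first transcribed base, the match began at position -110 in both Atf3 and Nupr1, at -193 in Chac1 and at 15 in Trib3. The full cyclic AMP response element TGACGTCA (1.79% of windows) and the endoplasmic reticulum stress element ERSE (0.119% of windows) had 0 matches among the members. The shorter part TGACG of the cyclic AMP response element, which 20.8% of windows hold, matched in 5 members (Atf4, Atf3, Cebpb, Trib3 and Chac1). These matches describe the letters in the windows and were not tested as binding sites.

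Sequencing depth lay between 20309956 and 31980683 counts per liver library and between 17070614 and 21387799 per fat library. The level that 0 counts still leaves possible (3 counts, counting error only) was no more than 0.148 CPM in any liver and 0.176 CPM in any fat library, where CPM is a count scaled to the library's size. Defining markers were checked against the tissue labels. Alb was at 26739 CPM or more in every liver and at 4.59 CPM or less in fat, and Adipoq at 991 CPM or more in fat and at 0.0396 CPM or less in liver. For the member genes halofuginone liver 1 lay apart from the other 4 treated livers. The members' liver tests and the list counts are given with and without it. This library was picked from the same member values that are then tested. Results without it show how much 1 library weighs and give no further support for a change. Over all genes it did not stand alone, since halofuginone livers 1 and 2 were the most distant pair (chi-square per degree of freedom 549.1, against 48.2 to 351 for the other pairs of treated livers). Fold changes are log2 ratios of halofuginone to vehicle from edgeR's quasi-likelihood test in each tissue alone. A gene was called at a Benjamini-Hochberg adjusted p under 0.05 over all genes tested. CPM values below use library sizes scaled by TMM (trimmed mean of M-values).

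In treated liver 7 of the 10 members rose, 1 fell, 1 did not pass the test and 1 was too low to test. The risers were the transcription factors Atf4, Atf5, Atf3, Ddit3 and Cebpg and the effectors Trib3 and Nupr1. Across all 12311 genes tested, 12.7% were called higher and 10.5% lower (23.2% in all). All 5 treated livers lay above all 5 vehicle livers for 2 members, Atf5 and Trib3, against 5.13% of all genes, and below them for 0 members, against 6.55%. The median log2 fold change of the 9 members tested was 2.16, against 0.017 over all genes. Without halofuginone liver 1, Chac1 was called too and 8 members rose. Without vehicle liver 1, 2 or 4 or halofuginone liver 3 or 5, 4 members (Atf5, Ddit3, Trib3 and Nupr1) rose. Fewer expressing cells and less RNA per cell cannot be told apart in bulk tissue.

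Atf4 (ENSMUSG00000042406), the regulator itself, was at 56.8, 72.7, 85.9, 62.9 and 72.0 CPM in vehicle livers 1 to 5. In halofuginone livers 1 to 5 it was at 65.0, 129, 140, 117 and 145 CPM. The last 4 treated livers lay above every vehicle liver, and liver 1 lay inside the vehicle range. The log2 fold change was 0.77 (SE 0.20, edgeR adjusted p 0.0220), and 0.90 without halofuginone liver 1 (edgeR adjusted p 0.000256). The call was lost without vehicle liver 1, 2 or 4 or halofuginone liver 3 or 5 (edgeR adjusted p 0.0508 to 0.0568). By fold change Atf4 had rank 636 of 12311 genes.

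Atf5 (ENSMUSG00000038539), a close relative of ATF4 that also controls a mitochondrial stress program, was the most abundant member in liver. Vehicle livers held 141, 118, 127, 126 and 123 CPM. Halofuginone livers held 161, 562, 647, 858 and 609.6 CPM. All 5 treated livers exceeded every vehicle liver, although liver 1 did so by little. The log2 fold change was 2.16 (SE 0.34, edgeR adjusted p 0.00410), and the call held without each library in turn (log2 fold changes of 1.94 to 2.38).

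Ddit3 (ENSMUSG00000025408) encodes CHOP, a C/EBP-like factor linked to cell death under lasting stress. It was at 4.67, 5.26, 11.98, 5.34 and 7.18 CPM in vehicle livers. Under halofuginone it was at 3.73, 55.0, 71.0, 43.5 and 67.7 CPM. Treated livers 2 to 5 were well above every vehicle value, whereas liver 1 was below the lowest. Ddit3 rose by 2.81 on the log2 scale (SE 0.59, edgeR adjusted p 0.0105), and 3.09 without liver 1.

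Atf3 (ENSMUSG00000026628), a repressor and activator induced by many stresses, was at 2.42, 6.06, 9.93, 5.15 and 2.98 CPM in vehicle livers and at 2.58, 19.3, 48.9, 17.2 and 67.9 CPM in treated livers. It had the widest spread among treated livers 2 to 5 of the factors, 3.95-fold from lowest to highest, against 1.24-fold for Atf4. Atf3 rose by 2.57 on the log2 scale (SE 0.69, edgeR adjusted p 0.0243). The call was lost in 6 of 10 fits that left out 1 library (edgeR adjusted p up to 0.0613), and without halofuginone liver 1 it was 2.85 (edgeR adjusted p 0.00107). The 6 were the fits without vehicle liver 1, 2, 4 or 5 or halofuginone liver 3 or 5.

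Cebpg and Cebpb had the smallest liver fold changes, in size, of the 9 members tested. Cebpg (ENSMUSG00000056216), a dimer partner of ATF4, was at 61.1, 69.7, 103, 68.5 and 69.9 CPM in vehicle livers and at 85.4, 118, 131, 112 and 119 CPM in treated livers. Treated livers 2 to 5 were above every vehicle liver, and edgeR called it at 0.60 on the log2 scale (SE 0.16, adjusted p 0.0217). Without halofuginone liver 1 it was 0.67 (edgeR adjusted p 0.00347). The call with all 10 livers was lost without vehicle liver 1, 2, 4 or 5 or halofuginone liver 3 or 5, with an edgeR adjusted p of at most 0.0590.

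Cebpb (ENSMUSG00000056501), a liver and fat regulator that is itself raised by many stresses, went the other way. It was at 70.7, 73.2, 76.4, 59.4 and 56.0 CPM in vehicle livers and at 53.2, 51.3, 52.1, 52.0 and 59.7 CPM in treated livers. Treated livers 1 to 4 lay below every vehicle liver and liver 5 lay inside the range. At −0.32 on the log2 scale (SE 0.10, edgeR adjusted p 0.0430) it was called with TMM scaling and lost with scaling by library size alone, at −0.16, which moved the median of all genes from 0.017 to 0.17. Without halofuginone liver 1 it was −0.34 (edgeR adjusted p 0.0276). The call was also lost in 7 of the 10 fits that left out 1 library, those without vehicle liver 1, 2 or 3 or halofuginone liver 2, 3, 4 or 5 (edgeR adjusted p up to 0.104). In GENCODE M21, 908 of the 1504 bases of Cebpb overlap Tmem189 on the opposite strand, and the strand of counting is not given in the sources used here. Tmem189 was at −0.71 on the log2 scale in liver (SE 0.16, edgeR adjusted p 0.0143), and its part in the Cebpb value was not tested.

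Trib3 (ENSMUSG00000032715) showed the largest change of the 10. Vehicle livers held 3.09, 2.75, 5.73, 4.44 and 3.93 CPM, and treated livers held 5.96, 237, 357, 210 and 284 CPM. Treated livers 2 to 5 were far above vehicle, and liver 1 was only just above the highest vehicle value. Trib3 rose by 5.78 on the log2 scale (SE 0.81, edgeR adjusted p 0.00317), and 6.07 without liver 1. It was rank 3 of 12311 genes by fold change.

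Nupr1 (ENSMUSG00000030717), a small chromatin-associated stress protein, followed at rank 4. Vehicle livers held 1.11, 2.35, 2.84, 2.73 and 1.02 CPM, and treated livers held 2.53, 122, 156, 84.9 and 85.7 CPM. Liver 1 lay inside the vehicle range, and the other 4 did not come near it. Nupr1 rose by 5.50 on the log2 scale (SE 0.83, edgeR adjusted p 0.00374), and 5.80 without liver 1.

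Chac1 (ENSMUSG00000027313), an enzyme that breaks down glutathione, stayed low in liver. Vehicle livers held 2.69, 3.61, 4.66, 2.50 and 2.26 CPM, and treated livers held 1.29, 11.6, 3.08, 5.59 and 12.6 CPM. Liver 1 was below every vehicle liver, liver 3 was inside their range, and 3 of 5 were above it. The log2 fold change of 1.14 (SE 0.50) was not called (edgeR adjusted p 0.118), and it was called without halofuginone liver 1 at 1.37 (edgeR adjusted p 0.0142). Stc2 (ENSMUSG00000020303), a secreted glycoprotein, had 1 to 8 counts in each liver and did not pass the filter on low counts.

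**Figure D1:**
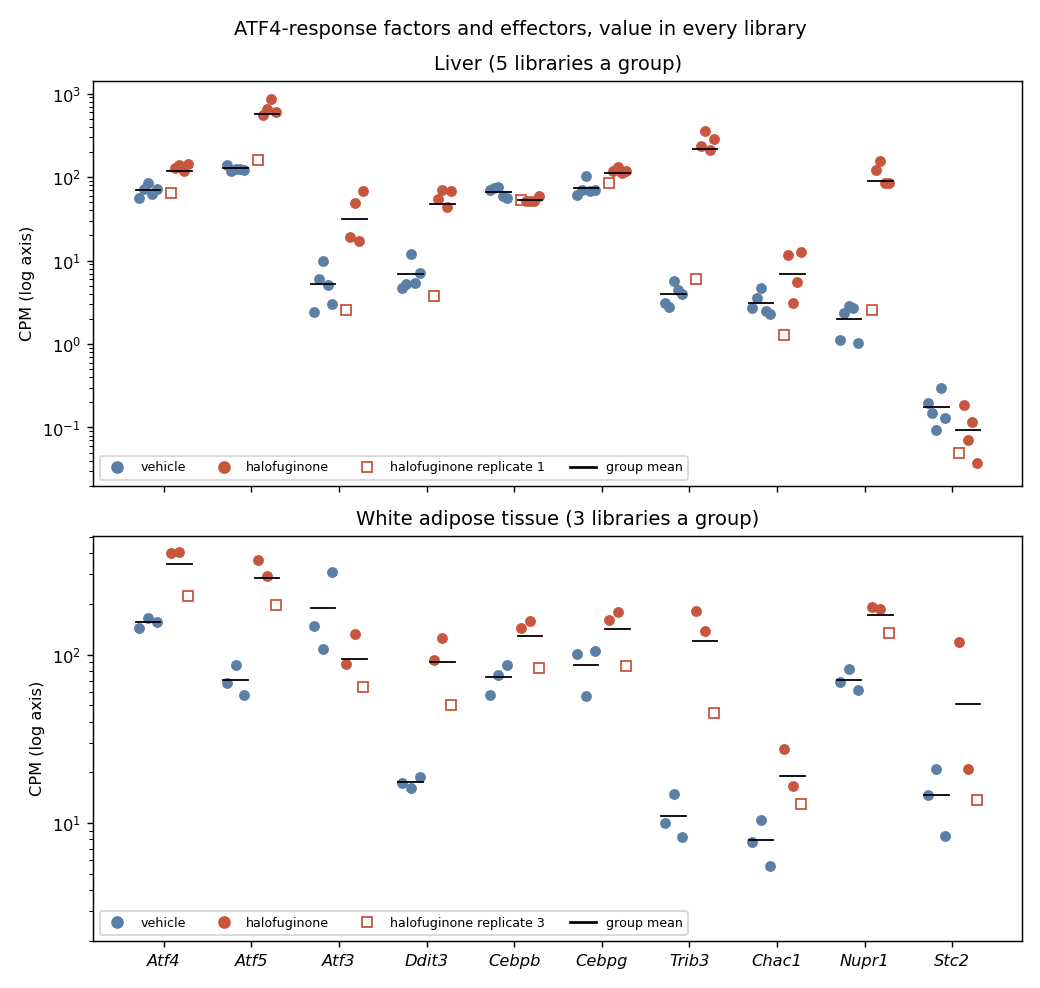
CPM of each of the 10 genes in every library (points, log axis) by tissue and arm, with the group mean as a line; the open square is halofuginone replicate 1 in liver and 3 in fat. In liver replicates 2 to 5 under halofuginone lie above all vehicle points for Atf4, Atf5, Atf3, Ddit3, Cebpg, Trib3 and Nupr1, while replicate 1 lies at or near vehicle.

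The lowest treated library was shared by most members, and the highest was not. Halofuginone liver 1 was the lowest treated liver for 8 of the 9 members tested, Cebpb being the exception. It lay above the vehicle range for 2 (Atf5 and Trib3), inside it for 4 (Atf4, Atf3, Cebpg and Nupr1) and below it for 3 (Ddit3, Cebpb and Chac1). The highest treated liver was number 3 for 4 members, number 5 for 4 and number 4 for Atf5. In fat halofuginone replicate 3 was the lowest treated library for all 10 members. The hepatocyte marker sum (8 genes) ran from 123555 to 136063 CPM in vehicle livers and from 42125 to 117278 CPM in treated livers, without overlap, and 6 of its 8 genes were lower at an unadjusted p under 0.05 (1 called lower, 1 called higher). Some other marker sums were lower in treated liver as well, but not all. The adipocyte sum was 87.4 to 185 CPM in vehicle and 12.9 to 62.7 CPM in treated livers (3 of 4 tested genes called lower). In liver it was carried by Cidec (4.37 to 94.5 CPM), Plin4 (2.00 to 70.6), Fabp4 (4.85 to 31.8) and Cfd (0 to 30.5). Adipoq, Plin1, Lep and Retn were at 0.0501 CPM or less in every liver, so the sum does not measure adipocytes there. The fibroblast and stellate sum was 217 to 304 CPM in vehicle and 146 to 239 CPM in treated livers, with overlap (3 of 8 called lower). The mesothelium sum had a median of 332 CPM in vehicle and 494 CPM in treated livers (1 of 2 tested genes called higher). In liver this sum was carried by Krt8 (89.5 to 309 CPM) and Krt18 (107 to 404 CPM). Msln, Upk3b, Wt1 and Lrrn4 were at 1.60 CPM or less in every liver, so the sum does not measure mesothelium there. The macrophage sum was 474 to 627 CPM in vehicle and 452 to 813 CPM in treated livers, the highest being halofuginone liver 1. The part of these markers in the member values was not tested.

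**Figure D2:**
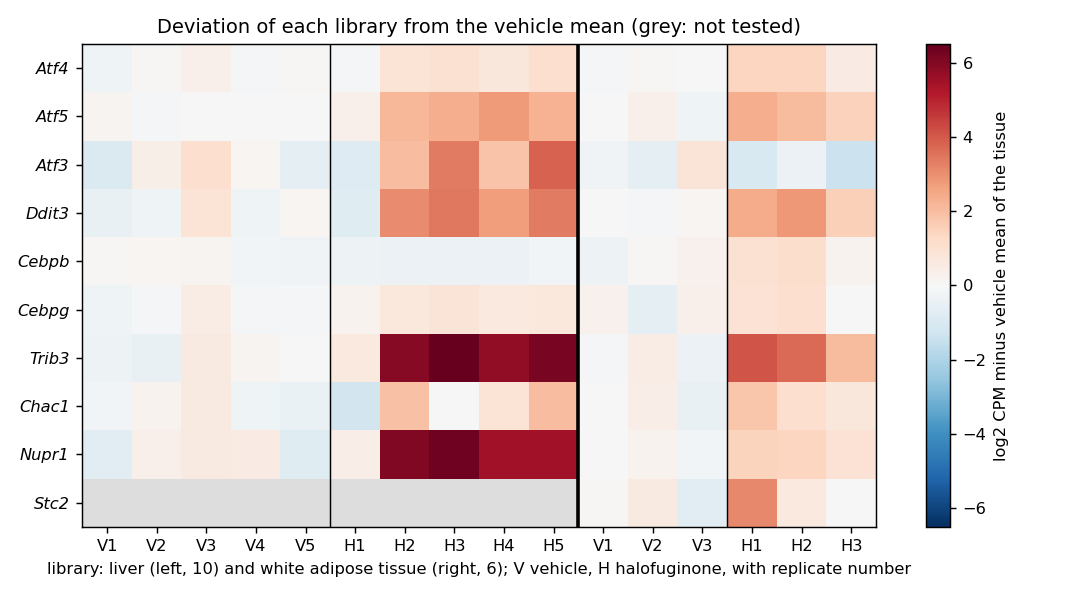
Log2 CPM of each gene in each library minus the vehicle mean of the same tissue (colour; V vehicle, H halofuginone, replicate number; grey, not tested). The strongest colours are those of Trib3 and Nupr1 in liver H2 to H5, liver H1 is pale for these genes, and Atf3 is on the positive side in liver H2 to H5 and on the negative side in fat H1 to H3.

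In white adipose tissue the same genes were mostly higher under halofuginone, but edgeR called 0 of 14030 genes, so no member passed the test there. At an unadjusted p under 0.05, edgeR counted 1881 genes in all (13.4%). At an adjusted p under 0.05, DESeq2 called 671 genes, and limma on log2 FPKM with a pseudocount of 1 called 17. For 6 of the 10 members (Atf4, Atf5, Ddit3, Trib3, Chac1 and Nupr1) all 3 treated libraries lay above all 3 vehicle libraries, which held for 10.2% of all genes tested. The unadjusted p was under 0.05 with a positive fold change for 7 members, those 6 and Cebpb, against 5.5% of all genes, and 0 were lower, against 7.91%. No member lay wholly below vehicle, which held for 10.4% of all genes. The 6 were also the members called by DESeq2. The median log2 fold change over the 10 members was 1.26, against 0.012 over all genes.

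Atf4 in fat was at 144, 165 and 157 CPM in vehicle replicates 1 to 3 and at 403, 406 and 221 CPM under halofuginone. The groups did not overlap, and edgeR gave 1.15 on the log2 scale (SE 0.26, adjusted p 0.173). Atf5 was at 68.0, 86.4 and 57.3 CPM in vehicle and at 363, 294 and 195 CPM under halofuginone. For Atf5 edgeR gave 2.01 on the log2 scale (SE 0.28, adjusted p 0.0954).

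Ddit3 was tight in vehicle fat, at 17.3, 16.3 and 18.8 CPM, and was at 93.3, 125 and 50.5 CPM under halofuginone. For this edgeR gave 2.36 on the log2 scale (SE 0.33, adjusted p 0.0954). Trib3 was at 9.95, 14.98 and 8.25 CPM in vehicle and at 181, 137 and 44.8 CPM under halofuginone, for which edgeR gave 3.45 on the log2 scale (SE 0.54, adjusted p 0.116). It had the largest fold change of the members in fat too, at rank 8 of 14030 genes. These 2 targets lay further above their vehicle means than Atf4 did in each treated fat library.

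Nupr1 was already well expressed in vehicle fat, at 68.8, 82.4 and 61.8 CPM, and was at 191, 186 and 134 CPM under halofuginone. The groups did not overlap, and the log2 fold change was 1.26 (SE 0.20, edgeR adjusted p 0.119). Chac1 was at 7.73, 10.5 and 5.54 CPM in vehicle and at 27.5, 16.7 and 13.0 CPM under halofuginone, for which edgeR gave 1.27 on the log2 scale (SE 0.35, adjusted p 0.231).

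Cebpb and Cebpg overlapped between the arms in fat. Cebpb was at 57.3, 75.6 and 86.9 CPM in vehicle and at 143, 157 and 83.5 CPM under halofuginone, for which edgeR gave 0.80 on the log2 scale (SE 0.28, adjusted p 0.304). Cebpg was at 100.4, 56.5 and 104.5 CPM in vehicle and at 161, 179 and 85.8 CPM under halofuginone, for which edgeR gave 0.70 on the log2 scale (SE 0.35, adjusted p 0.434). In both genes halofuginone replicate 3 lay within the vehicle range and the other 2 treated libraries above it.

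Stc2 rested on 1 library. It was at 14.6, 20.9 and 8.37 CPM in vehicle fat and at 119, 21.0 and 13.7 CPM under halofuginone, so that replicate 1 alone stood far above vehicle. Its log2 fold change was 1.80 (SE 0.83, edgeR adjusted p 0.405), and 0.25 without halofuginone replicate 1.

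Atf3 was the only member with a negative fold change in fat. Vehicle fat held 148, 108 and 310.4 CPM, and treated fat held 87.3, 132 and 63.9 CPM, the second inside the vehicle range. The log2 fold change was −0.999 (SE 0.44, edgeR adjusted p 0.394), and −0.44 without vehicle replicate 3. The summed level of 10 macrophage markers moved in the same direction. It was 6419, 5544 and 10628 CPM in vehicle replicates 1 to 3 and 3557, 3386 and 3869 CPM in treated ones, and 8 of its 9 tested genes had an unadjusted p under 0.05, all lower. Further sums were lower without overlap in treated fat. That of 8 fibroblast and stellate markers was 3583.5 to 5227 CPM in vehicle and 2650.3 to 3210 CPM in treated fat (3 of 7 tested genes lower at an unadjusted p under 0.05). That of 6 skeletal muscle markers was 92.5 to 174 CPM and 52.3 to 61.8 CPM (1 of 6). The muscle sum was carried by Acta1 (45.4 to 164 CPM), with Ckm, Myh4, Myh1, Tnnt3 and Mylpf at 3.75 CPM or less in every fat library. The summed level of 14 immediate early and AP-1 genes, the class to which stress-induced Atf3 is often compared, overlapped between the arms (809 to 910.1 CPM in vehicle, 702 to 1363 CPM under halofuginone). The part of these in the Atf3 value was not tested.

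**Figure D3:**
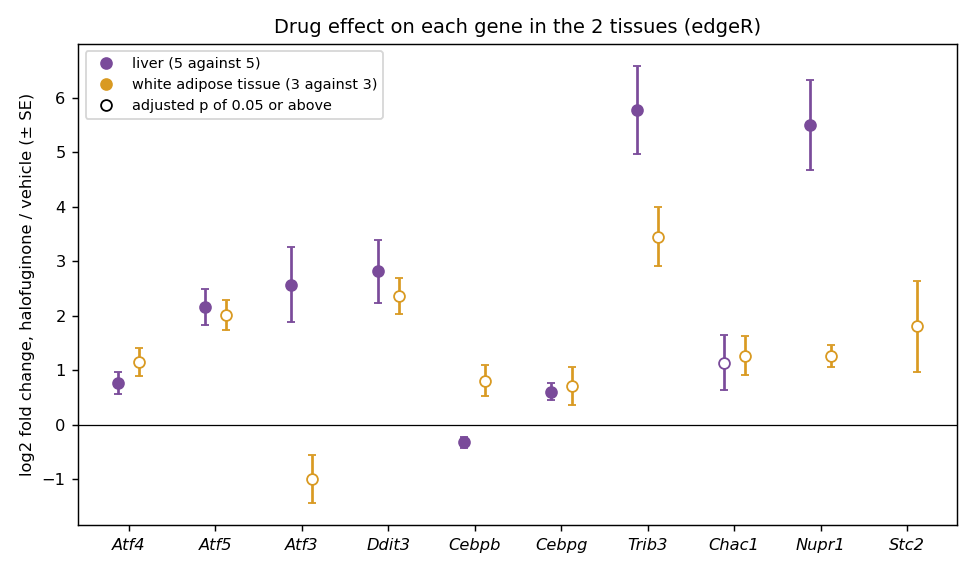
Log2 fold change of halofuginone over vehicle (points, with edgeR standard errors) for each gene in liver and in fat; filled points have an adjusted p under 0.05. Trib3 is highest in both tissues (5.78 and 3.45), Atf3 lies at 2.57 in liver and −0.999 in fat, and Cebpb at −0.32 in liver and 0.80 in fat.

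Whether the drug effect differed between the tissues was tested with the 16 libraries fitted together, positive values meaning a greater effect in fat. Of 14853 genes 0.949% were called (0.417% higher, 0.532% lower), and 0 of the 10 members were among them. Stc2 entered this fit only through fat, having 1 to 8 counts in each liver, and is not counted below. At an unadjusted p under 0.05, 1 of the other 9 members was higher and 3 were lower, against 6.91% and 8.83% of all genes (15.7% in all). DESeq2 called 3 members (Atf3, Cebpb and Nupr1). Nupr1 had the most negative difference, −4.27 (SE 1.02, edgeR adjusted p 0.0570), with a low vehicle level in liver and a high one in fat. Atf3 differed by −3.58 (SE 0.99, edgeR adjusted p 0.0936). Cebpb differed by 1.10 (SE 0.25, edgeR adjusted p 0.0510). It was higher in 3 of 3 treated fat libraries and lower in 5 of 5 treated livers than the vehicle mean of its tissue. Tmem189, which overlaps Cebpb on the opposite strand, was at −0.71 on the log2 scale in liver and 0.10 (SE 0.23) in fat. Its fat means were 185 CPM in vehicle and 199 CPM under halofuginone. The part of Tmem189 in the fat values of Cebpb and in the tissue comparisons of Cebpb was not tested. The remaining unadjusted p under 0.05 was that of Trib3 (−2.37, SE 1.04, edgeR adjusted p 0.280).

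Halofuginone liver 1 weighed on this comparison, and as it was picked from the member values, the calls without it are no further support. Without it edgeR called 4 members, namely Nupr1 (−4.59, adjusted p 8.91e-05), Atf3 (−3.88, adjusted p 0.00757), Trib3 (−2.68, adjusted p 0.00861) and Cebpb (1.09, adjusted p 0.0227), and 1053 genes in all. Cebpb was also called without halofuginone fat 3 (1.33, edgeR adjusted p 0.0111). That library was the lowest treated fat library for all 10 members, Cebpb included, so this call is no further support either. For Atf4 (0.35, SE 0.34), Atf5 (−0.18, SE 0.50), Ddit3 (−0.48, SE 0.81), Cebpg (0.080, SE 0.34) and Chac1 (0.099, SE 0.75) the difference was within about 1 standard error of 0, which does not show equal effects.

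Levels between genes are compared per length, as the deposited FPKM (fragments scaled to transcript length and library depth). In vehicle liver the order began with Atf5 (66.8 ± 5.20 FPKM, SD, n = 5), then Cebpb (42.2 ± 4.69) and Atf4 (38.5 ± 5.33), whose ranges overlapped. Cebpg (16.7 ± 3.14) and Ddit3 (7.8 ± 3.35) followed, and the highest Ddit3 value, 13.55, passed the lowest Cebpg value, 13.09. Atf3, Nupr1, Trib3 and Chac1 all had means between 1.81 and 2.52 FPKM and overlapped one another, and Stc2 was last at 0.0440 ± 0.0230. Under halofuginone Nupr1 (119 ± 81.4 FPKM) and Trib3 (117 ± 74.9) came next after Atf5 (334 ± 148), with overlapping ranges.

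In vehicle fat the order was different at the top. Atf3 (91.8 ± 48.7 FPKM, SD, n = 3), Atf4 (88.0 ± 8.10) and Nupr1 (84.7 ± 15.8) led and overlapped, and Cebpb (47.5 ± 9.08) and Atf5 (38.2 ± 9.38) came next and overlapped. Cebpg (21.4 ± 4.10) and Ddit3 (20.7 ± 0.923) overlapped, as did Trib3 (5.38 ± 1.90), Chac1 (4.77 ± 1.66) and Stc2 (3.67 ± 1.70). Under halofuginone Nupr1 (211 ± 37.3 FPKM), Atf4 (203 ± 60.9) and Atf5 (160.1 ± 47.3) led and overlapped, with Ddit3 at 104.2 ± 41.9 and Atf3 at 48.5 ± 17.1.

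**Figure D4:**
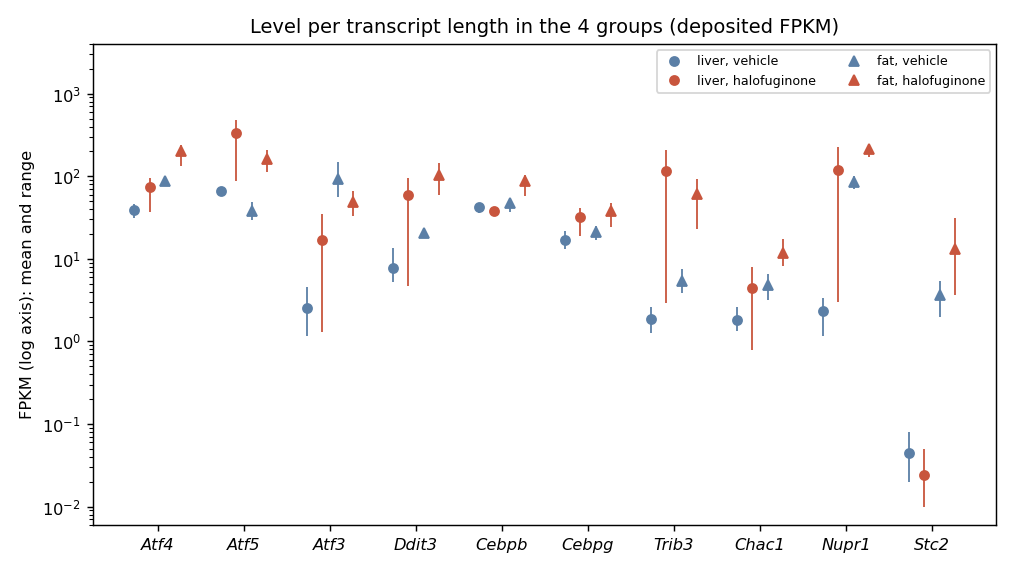
Deposited FPKM (log axis) of each gene in the 4 groups, as the mean (circle, liver; triangle, fat) and the range over libraries (line). Stc2 is under 0.1 FPKM in liver, and Atf3 and Nupr1 are far higher in vehicle fat (91.8 and 84.7) than in vehicle liver (2.52 and 2.34).

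Without the drug, fat and liver differed in the level of several members. In the joint fit edgeR called 2 of the 9 members other than Stc2 higher in vehicle fat and 3 lower, against 40.9% and 31.5% of all 14853 genes (72.3% in all), so the members' shares are near or below the background. Nupr1 (log2 fold change of fat over liver 4.01, SE 0.72) and Atf3 (4.00, SE 0.70) were higher in fat. Stc2 passed the filter on low counts only through fat, so its levels, 0.0932 to 0.299 CPM in vehicle liver and 8.37 to 20.9 CPM in vehicle fat, are given without a test. Atf5 (−1.99, SE 0.39), Cebpb (−1.02, SE 0.19) and Cebpg (−0.92, SE 0.25) were lower in fat. Scaling by library size alone moved the median of all genes from 0.18 to 1.36. The direction then became positive for Cebpb (0.17) and Cebpg (0.27), while Atf5 was at −0.79 and no longer called (edgeR adjusted p 0.0554), and Nupr1 and Atf3 were higher in fat under both scalings. With that scaling Atf4 (1.20, edgeR adjusted p 0.000298), Ddit3 (1.39, adjusted p 0.0341) and Chac1 (1.40, adjusted p 0.0197) were called higher in fat as well.

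Other ATF4 targets, in lists by role, were also followed in liver, where 12.7% of all genes were called higher and 10.5% lower. Of 10 tested genes of amino acid and one-carbon synthesis, 6 rose and 1 fell (median log2 fold change 1.76, against 0.017 over all genes). Asns, asparagine synthetase, rose by 6.80 on the log2 scale (SE 0.74), Psat1 of serine synthesis by 4.63 (SE 0.77) and Pck2, mitochondrial PEP carboxykinase, by 1.83 (SE 0.29). Shmt2, the mitochondrial serine hydroxymethyltransferase, was the one that fell, at −1.10 (SE 0.19); it was named after its value was seen. Of 6 amino acid transporters tested 3 rose (Slc7a1, Slc7a5 and Slc3a2, log2 fold changes of 2.65, 2.17 and 1.06) and 0 fell, and of 12 aminoacyl-tRNA synthetases 6 rose and 0 fell (Eprs at 1.24, Sars at 1.04 and Gars at 0.98). Among 12 other stress targets 4 rose and 0 fell, among them Fgf21 (2.91, SE 0.51), Ddit4 (2.18, SE 0.49) and Sesn2 (1.81, SE 0.26), and without halofuginone liver 1 the count was 8. Without that liver 7 synthesis genes, 3 transporters and 9 synthetases rose. With limma on log2 FPKM 3 synthesis genes and 1 transporter were called higher, and without halofuginone liver 4 a second synthesis gene was called lower.

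In fat edgeR called 0 genes of any of these lists, with counts at an unadjusted p under 0.05 as follows. All 12 synthetases were higher (median log2 fold change 0.90), as were 4 of 7 transporters (median 1.05), 7 of 12 other stress targets (0.84) and 3 of 12 synthesis genes (0.71, with 1 lower), against 5.5% of all genes. Psat1 was at 132 CPM in vehicle fat and 140 CPM in treated fat (log2 fold change 0.079, SE 0.26), while Asns went from 44.7 to 195 CPM (2.12, SE 0.37, edgeR adjusted p 0.130). The tissue difference was called for Asns (−4.70, SE 0.92, edgeR adjusted p 0.0323), Psat1 (−4.58, SE 0.98, adjusted p 0.0412) and Shmt2 (1.51, SE 0.31, adjusted p 0.0331).

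Neighbours of the pathway were counted in the same way, and no difference between lists was tested. Their counts in liver stand against the same 12.7% higher and 10.5% lower. Of 14 endoplasmic reticulum targets of ATF6 and XBP1, the other arms of the unfolded protein response, 0 rose and 1 fell in liver (Sel1l, of endoplasmic reticulum-associated degradation, −0.66, SE 0.18), with a median of −0.26 in liver and −0.16 in fat. Of 13 other ATF and CREB family genes tested in liver 2 rose, Creb3 by 0.46 (SE 0.12) and Atf1 by 0.28 (SE 0.081) on the log2 scale, and 0 fell. The 3 other C/EBP genes tested in liver, of which Cebpa (−0.30, SE 0.20) was the most expressed, had 0 calls in either direction. So had the 3 paralogs of the effectors tested, of which Trib1 (−0.32, SE 0.23) was the most expressed. Without halofuginone liver 1, 2 of the C/EBP genes and 1 paralog were called lower, and 4 ATF and CREB genes and 1 eIF2 gene higher. The ATF6 and XBP1 targets then had 1 call lower, and the immediate early and AP-1 genes 2. Among 12 immediate early and AP-1 genes tested in liver 0 rose and 1 fell, Jun (−0.73, SE 0.20), a dimer partner of ATF3. Among 6 genes of eIF2 kinases and phosphatase subunits 0 rose and 1 fell, Eif2ak2, which encodes PKR (−0.63, SE 0.14). Leaving out 1 liver gave 0 to 4 ATF and CREB genes higher and 0 to 1 lower, 0 to 2 immediate early genes lower and 0 to 1 of the ATF6 and XBP1 targets lower. The Sel1l list had 0 calls without vehicle liver 2, 3 or 5 or halofuginone liver 3 or 4, and the Jun list without vehicle liver 2, 3 or 4 or halofuginone liver 3, 4 or 5.

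**Figure D5:**
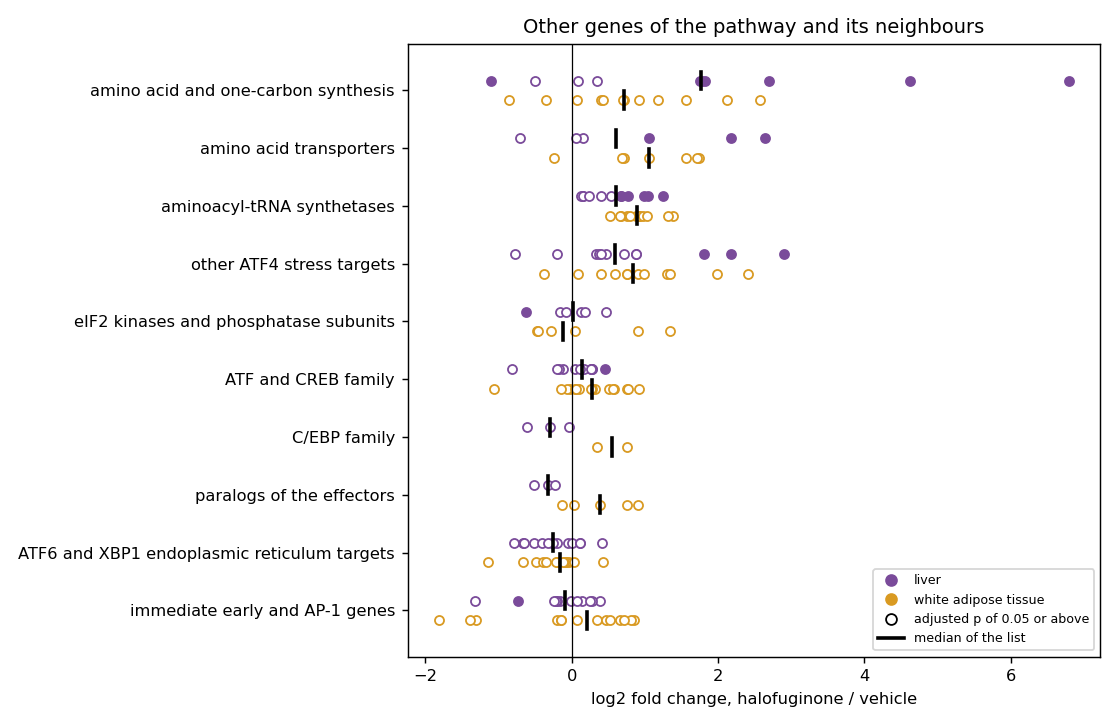
Log2 fold change of halofuginone over vehicle for each tested gene of the 10 lists (points; filled, adjusted p under 0.05) in liver and fat, with the list median as a bar. The 4 lists of ATF4 targets have medians of 0.59 to 1.76 in liver and 0.71 to 1.05 in fat, and the list of ATF6 and XBP1 targets has −0.26 and −0.16.

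The genes most like Atf4 and Trib3 were looked for by the root-mean-square difference of log2 CPM relative to the vehicle mean, over the libraries of 1 tissue, among genes with at least 5 CPM. Over 10 livers and 9063 genes, Fubp1 (0.064), Xpo4 (0.089) and Eif2s1 (0.10) were nearest to Atf4, where the median gene was at 0.63. Fibin (0.79), Psat1 (0.91) and Asns (1.26) were nearest to Trib3, where the median gene was at 3.85. Over 6 fat libraries and 11189 genes, Rhbdd1 (0.12), Gtpbp2 (0.16) and Xpot (0.17) were nearest to Atf4 (median gene 0.85), and F5 (0.66), Cox6a2 (0.73) and Mthfd2 (0.74) to Trib3 (median gene 2.39). Fibin, Psat1 and Asns had vehicle liver means of 0.30, 0.76 and 0.64 CPM, so they entered only through the treated arm. So did F5 and Cox6a2, with vehicle fat means of 1.47 and 0.23 CPM. These values are descriptions over libraries that share their treatment arms.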

How the data were processed

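RNA-seq of 16 libraries was analysed, 10 of liver and 6 of white adipose tissue. Per the file headers, the authors deposited 1 table per tissue with a whole-number count and an FPKM value per gene and library. The submitters' processing notes name fastp 0.18.0, HISAT2, Bowtie2 2.2.8, StringTie 1.3.1, RSEM and build mm39 without their roles, so counts may be rounded estimates; the strand of counting is not given in the sources used here. Symbols matched 22267 of 22322 identifiers, and 0 columns were unmapped. No replicate pair agreed within sampling noise (smallest chi-square per degree of freedom 31.2).

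In R 4.3.3, edgeR 4.0.16 was run on the counts (glmQLFit and glmQLFTest after filterByExpr and TMM, two-sided, Benjamini-Hochberg over all genes), each tissue alone, and all 16 libraries for contrasts between tissues. Each SE was obtained by dividing the size of the log2 fold change by the square root of F. The fits were also run on simulated counts, drawn with edgeR's own dispersions and the same change in every library of a group. That setting cannot show how they behave when 1 treated library departs from the rest. Alternatives were DESeq2 1.42.0, other scalings, filters and dispersion, a replicate block, 1 fit of all groups, limma 3.58.1 on log2 FPKM (pseudocount 1 or 0.1), and leaving out each library. Members and gene lists were chosen with earlier results of these data known. Named were the members and up to 3 called genes per list with the largest liver change (at least 5 CPM in the higher arm). Where a list had none, its most expressed gene was named. The 3 genes most like Atf4 and Trib3 in each tissue were named too.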

Additional observations from a re-analysis of the deposited data

Results flagged for a closer look

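The highest or lowest of 5 livers is named here where the distance to its neighbour was more than 0.71 of the range of all 5, which chance gives in about 1 of 20 groups. Of 18 groups of member values 2 passed this limit, where 0.9 would be expected. Cebpb in halofuginone liver 5 was at 59.7 CPM, with 53.2 CPM next (0.778 of the range). Cebpg in vehicle liver 3 was at 103 CPM, with 69.9 CPM next (0.792 of the range).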

How the results depend on the processing

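In liver the 7 member rises were called under every alternative that kept all 10 livers, except that Cebpg was lost with all 16 libraries in 1 fit (6 rises). The single fall (Cebpb) was lost, giving 0 falls, with library size alone, no filter, the replicate block, both FPKM fits and all 16 libraries in 1 fit. Leaving out 1 liver gave 4 to 8 member rises, 0 to 1 falls and 1275 to 5312 genes in all (2850 with all 10). Library size alone called 76.9% of its genes higher, against 54.7%. In fat, where edgeR called 0, DESeq2 called 671 genes and 6 members, all 16 libraries in 1 fit 334 genes and 2 members (Atf4 and Atf5), limma with pseudocount 1 17 genes, and no filter 1 gene; leaving out 1 library gave 0 to 1 genes and 0 members. For the tissue difference (141 genes, 0 members), DESeq2 called 686 genes with 1 member higher and 2 lower, the replicate block 23 genes, and limma with pseudocount 1 375 genes with 1 member (Cebpb) higher, as DESeq2 size factors and the 1 CPM filter also gave 1. Leaving out 1 library gave 34 to 1053 genes, 0 to 1 members higher and 0 to 3 lower. Uncalled differences near 0 changed sign: Cebpg to −0.13 and −0.14 in the FPKM fits, and with 1 library left out Cebpg ran from −0.14 to 0.33, Chac1 from −0.27 to 0.43 and Atf5 from −0.42 to 0.018. Between vehicle tissues (10746 genes, 3 members higher in fat, Stc2 included, and 3 lower), library size alone gave 6 higher and 0 lower, and the FPKM fits 5 and 0. Cebpb became 0.17 with library size alone and 0.16 in both FPKM fits, and Cebpg 0.27, 0.34 and 0.36. Atf4 (0.0039) became −0.013 with DESeq2, −0.014 with its size factors and -7.99e-05 without a filter, and with 1 library left out Atf4 ran from −0.064 to 0.088 and Chac1 from −0.075 to 0.42. No sign of pairing by replicate number was seen between the arms, which does not show that samples were unpaired. Same-numbered vehicle and treated libraries correlated from −0.107 to 0.031 in liver and −0.549 to 0.102 in fat. In liver 1 of 5 vehicle libraries correlated best with its own number, and in fat 0 of 3. Same-numbered liver and fat libraries correlated from 0.054 to 0.139 in vehicle and from −0.078 to 0.03 under halofuginone. Whether they came from the same mouse is not given in the labels used here, and the fits of 16 libraries treated them as unpaired. The replicate block called 1901 genes in liver and 0 in fat. The cause of these changes was not tested.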

Other observations

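The second Ddit3 row (ENSMUSG00000116429) had 0 counts in all 8 vehicle libraries and 1 or 2 counts in 4 of 8 treated ones, at or under the 3-count floor throughout. Atf5 overlaps Nup62, a nuclear pore gene, on the opposite strand in GENCODE M21, over 571 of the 4403 bases of Atf5. Nup62 fell by 1.12 on the log2 scale in treated liver (SE 0.19, edgeR adjusted p 0.00602), while Atf5 rose there. Ddit3 overlaps Mars, methionyl-tRNA synthetase, over 68 bases on the opposite strand, and Mars was at 42.4 CPM in vehicle liver and 47.2 CPM in treated liver (log2 fold change 0.15, SE 0.087, edgeR adjusted p 0.208).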
